A study of Arabidopsis thaliana with 36 samples.

Results

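Transcripts of 8 Arabidopsis loci of traffic between the endoplasmic reticulum (ER) and the Golgi were followed through 12 groups of seedlings. They are 4 loci of the SAR1 GTPase family (SAR1A, SAR1B, SAR1C and SAR1D), the outer coat genes SEC31A and SEC31B, the SNARE gene SEC22 and the ADP-ribosylation factor gene ARFA1D. They were taken by locus from a list, 8 of the 37336 loci in the count tables, and 7 of the 8 carried enough reads to be tested. The list was chosen with earlier results of these data known. Shares of members called therefore describe the set and do not test it. SEC31B had no read in any library. SAR1C and SAR1D are working names here for AT4G02080, which RefSeq calls SAR2, and AT3G62560.

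Secretory proteins leave the ER in vesicles wrapped in the COPII coat. The small GTPase SAR1 loads GTP at the ER membrane, recruits the inner coat of SEC23 and SEC24, and the outer cage of SEC13 and SEC31 then closes the bud. SNAREs such as SEC22 drive fusion with the next membrane, and GTPases of the ARF1 class recruit the COPI coat that returns cargo from the Golgi. Misfolded protein in the ER sets off the unfolded protein response (UPR), in which plants use bZIP28 and bZIP17, membrane-anchored transcription factors that the Golgi proteases S1P and S2P release, and bZIP60, which becomes active once IRE1 has spliced its mRNA.

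Whole seedlings aged 12 days were sampled after 6 h in water with a chemical or with the solvent DMSO (mock), and mRNA was sequenced from the 3′ end. Seedlings of the wild type (WT) had mock or 1 of 3 inducers: tunicamycin (Tm, which blocks N-glycosylation, at 5 µg/ml), dithiothreitol (DTT, 2 mM, which reduces disulfide bonds) or azetidine-2-carboxylate (AZC, 5 mM, a proline analogue built into protein). Mock or Tm alone was given to 4 double knockouts, labelled bzip17/28, bzip28/60, bzip17/60 and s1p/s2p. Every group had 3 libraries. The labels name no alleles, and they do not say that repeats were grown apart, so the p-values rest on a spread between samples that may be technical only.

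Depth ran from 1278322 counts in the shallowest library to 2810235 in the deepest, with a median of 2011039. WT libraries held 1278322 to 1934709 counts and mutant libraries 1645590 to 2810235. Of assigned, ambiguous and no-feature reads together, those on no feature were 3.24 to 6.32% in WT and 2.69 to 3.48% in mutants. Comparisons of mutants with WT run along this difference, and its part in the results was not tested. Levels are given in CPM, counts relative to library size after TMM scaling, as single libraries or as mean ± SD of 3 libraries. Loci with 1 transcript model, 26319 of 37336, held 91.1 to 93.6% of the counts in a library. Which genes held enough reads to be tested may depend on this, and that was not tested. Reads came from the 3′ end, and ambiguous reads, among which reads shared by transcript models may fall, were set aside. Levels may therefore be compared between groups for 1 gene, provided its 3′ ends are used alike, but not between genes. Differences are log2 fold changes ± standard error from edgeR's quasi-likelihood test on 10480 genes, with Benjamini-Hochberg adjusted p, and "rose", "fell", "higher" or "lower" of a tested difference means an adjusted p under 0.05. For BZIP17, libraries of bzip17/28 and of bzip17/60 held 0 to 3 counts. BZIP28 had 0 to 1 in bzip17/28, yet 23 to 30 in bzip28/60 mock against 35 to 42 in WT mock. Scaled for depth, these 2 mock groups had BZIP28 means of 11.3 and 24.6 CPM. BZIP60 stood at 29.9 to 36.1 CPM in the 4 group means of bzip28/60 and bzip17/60, against 125 CPM in WT mock and 772 CPM in WT Tm. S1P and S2P had 0 or 1 count in every library, which leaves the s1p/s2p label unchecked, and a 3′ read need not lie in a disrupted stretch of a gene. Sums of 6 shoot markers lay between 16100 and 26300 CPM in all 36 libraries, and RBCS3B was the shoot marker without a count in 7 of the 12 groups. A bulk library cannot tell fewer cells of a type from less RNA per cell. Spread between repeats was widest in WT Tm, where edgeR's biological coefficient of variation was 28.2%, and it lay between 5.57 and 14.3% in the other groups.

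Promoter sequences are shown for the 5 loci with the largest rises with Tm in WT and for SAR1D, which fell, so that the letters upstream of both kinds can be read. Each is the 250 bases before the annotated start in RefSeq TAIR10.1, 5′ to 3′ on the strand of the gene. Capitals mark every match, on either strand, to ACGT (the core of many plant bZIP sites), to CCACG (a piece of the ER stress response elements), to TGACGTG (a longer site around the same core) and to TCATCG (known as UPRE-III). They also mark both end pieces of each match to an ER stress response element of the first type, ERSE-I, which is CCAAT followed after 10 further bases by CACG and which bZIP28 is known to bind together with NF-Y factors. Matches overlap, since TGACGTG holds ACGT and CCACG often precedes T. The intervals are chr1:2964773-2965022 on the plus strand for SAR1A, chr1:21088555-21088804 on the minus strand for SAR1B, chr1:6488983-6489232 on the plus strand for SEC31A, chr1:4010507-4010756 on the plus strand for SEC22, chr1:26565866-26566115 on the minus strand for ARFA1D and chr3:23137036-23137285 on the plus strand for SAR1D.
SAR1A: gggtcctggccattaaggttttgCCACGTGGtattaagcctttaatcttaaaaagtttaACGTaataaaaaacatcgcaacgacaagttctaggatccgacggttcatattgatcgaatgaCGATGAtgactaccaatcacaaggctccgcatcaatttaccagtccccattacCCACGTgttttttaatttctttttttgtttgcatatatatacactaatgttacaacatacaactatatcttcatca
SAR1B: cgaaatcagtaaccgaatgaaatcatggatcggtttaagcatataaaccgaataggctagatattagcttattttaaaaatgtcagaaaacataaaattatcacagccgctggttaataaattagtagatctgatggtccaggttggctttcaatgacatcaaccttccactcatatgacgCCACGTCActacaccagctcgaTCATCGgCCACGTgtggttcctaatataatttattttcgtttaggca
SEC31A: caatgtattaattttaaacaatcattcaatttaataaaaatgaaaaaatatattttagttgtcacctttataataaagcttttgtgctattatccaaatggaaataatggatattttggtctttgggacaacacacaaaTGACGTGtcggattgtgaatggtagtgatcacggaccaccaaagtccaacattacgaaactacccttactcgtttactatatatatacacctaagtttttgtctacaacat
SEC22: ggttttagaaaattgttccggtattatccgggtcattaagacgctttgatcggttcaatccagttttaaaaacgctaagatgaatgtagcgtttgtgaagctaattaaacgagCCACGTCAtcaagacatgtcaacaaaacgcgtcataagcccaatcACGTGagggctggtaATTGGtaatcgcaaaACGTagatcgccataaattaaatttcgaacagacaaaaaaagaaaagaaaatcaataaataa
ARFA1D: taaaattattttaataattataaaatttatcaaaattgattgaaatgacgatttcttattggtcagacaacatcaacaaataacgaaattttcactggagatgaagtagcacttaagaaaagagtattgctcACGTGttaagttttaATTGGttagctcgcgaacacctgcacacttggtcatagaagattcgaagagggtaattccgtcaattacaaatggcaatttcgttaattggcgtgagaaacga
SAR1D: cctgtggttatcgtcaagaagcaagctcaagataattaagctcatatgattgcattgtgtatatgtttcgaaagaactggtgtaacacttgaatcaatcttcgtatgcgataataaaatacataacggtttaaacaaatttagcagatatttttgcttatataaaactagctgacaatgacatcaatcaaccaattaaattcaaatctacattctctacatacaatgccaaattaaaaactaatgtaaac

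An ERSE-I stood in 2 of these windows, both read on the opposite strand, 91 to 73 bases before the start of SEC22 and 117 to 99 bases before that of ARFA1D. Of all 27443 promoters of the same length, 0.689% hold one. The second type, ERSE-II (the letters ATTGG with 1 further base before a CCACG), stood in none of the 8 windows and in 0.0619% of all promoters. CCACG, found in 15% of all promoters, stood 3 times before SAR1A, 2 times before SAR1B and once before SEC22. TGACGTG, found in 2.9%, stood once each before SAR1B, SEC31A, SEC22 and also SEC31B. TCATCG, found in 6.45%, stood once before SAR1A and once before SAR1B. SAR1C had 1 ACGT, a match that 44.1% of promoters share, and SAR1D had none of the 6 motifs. These matches describe letters in a window and say nothing of which factor binds there.

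Among the SAR1 genes, SAR1A (AT1G09180, chr1:2965023-2965972, plus strand) was nearly silent without a UPR inducer. Its 3 WT mock libraries held 0, 1 and 2 reads, its WT Tm libraries 29, 26 and 29, its DTT libraries 36, 34 and 20 and its AZC libraries 6, 7 and 6. Every treated WT library thus lay above every mock library, and AZC stayed below Tm and DTT. In bzip17/28 the counts were 4, 2 and 4 under mock and 145, 215 and 215 under Tm. In s1p/s2p they were 0, 1 and 1 under mock and 60, 77 and 72 under Tm. In bzip28/60 they were 1, 0 and 0 under mock and 0, 1 and 1 under Tm, and in bzip17/60 0, 0 and 2 under mock and 0, 1 and 0 under Tm. The 2 genotypes labelled as bZIP60 knockouts therefore held at most 2 SAR1A reads in a library with or without Tm, while bzip17/28 and s1p/s2p held more than WT with Tm.

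SAR1B (AT1G56330, chr1:21086501-21088554, minus strand) carried a standing level to which Tm added. WT mock libraries stood at 90.0, 71.9 and 91.5 CPM and WT Tm libraries at 194, 289 and 241 CPM. With DTT they stood at 174, 210 and 194 CPM, and with AZC at 110, 105 and 93.3 CPM. Tm and DTT libraries were all above the mock libraries, and the AZC libraries were just above them. In bzip17/28 the mock libraries stood at 116, 135 and 120 CPM and the Tm libraries at 397, 434 and 435 CPM. In s1p/s2p the values were 93.9, 105 and 116 CPM under mock and 171, 205 and 218 CPM under Tm. Mock and Tm overlapped in bzip28/60, at 83.3, 84.4 and 77.5 against 72.4, 74.9 and 87.3 CPM. In bzip17/60 the 3 Tm libraries (102, 90.4 and 93.1 CPM) lay above the 3 mock libraries (78.6, 77.2 and 56.7 CPM) by less than the test could call.

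The 2 remaining SAR1 genes moved little. SAR1C (AT4G02080, chr4:921447-922759, plus strand) had group means from 104 to 201 CPM, 1.94 times apart, with WT Tm at the top (193, 240 and 171 CPM) and its neighbours in the order overlapping from WT DTT downwards. SAR1D (AT3G62560, chr3:23137286-23139145, plus strand) had group means from 56.0 to 104 CPM, 1.86 times apart. Its 5 Tm groups were the 5 lowest of the 12, and in each genotype the 3 Tm libraries lay below the 3 mock libraries. The widest of these groups was WT Tm, at 73.2, 37.2 and 71.6 CPM against 97.9, 83.6 and 88.7 CPM in WT mock.

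SEC31A (AT1G18830, chr1:6489233-6494634, plus strand), 1 of the genes for the outer cage, spanned the widest range, with group means from 0.53 to 484 CPM. WT mock libraries stood at 3.04, 2.76 and 0.558 CPM, WT Tm at 42.4, 38.0 and 39.7 CPM, DTT at 120, 119 and 148 CPM and AZC at 7.53, 5.60 and 4.03 CPM. These 4 WT groups did not overlap. In bzip17/28 the mock libraries, at 33.7, 28.8 and 31.3 CPM, were already near WT Tm, and the Tm libraries reached 435, 544 and 472 CPM. In s1p/s2p mock stood at 16.6, 11.7 and 11.8 CPM and Tm at 150, 165 and 158 CPM. The order of group means ran bzip17/28 Tm, s1p/s2p Tm, WT DTT, WT Tm, bzip17/28 mock, s1p/s2p mock, WT AZC and WT mock, and no group among these overlapped the next. Below them, bzip28/60 and bzip17/60 held 0 to 4 reads per library in either treatment, and their ranges overlapped.

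All 5851 SEC31A reads were counted on 1 of its 3 transcript models, the one whose 3′ end lies 198 bases past the next. In the same way 5204 of the 5219 ARFA1D reads fell on the model that runs 206 bases past the other 6, and 15 fell on another model. For SEC31A and ARFA1D a change between groups in the 3′ end used would also change the counts, and this was not tested. The 3 models of SEC31B (AT3G63460, chr3:23430623-23437374, minus strand) end within 21 bases of each other, and none received a read. For SEC31B, 0 counts allow a level of up to 1.07 to 2.35 CPM (here of assigned counts, unscaled) in a library, for counting error only, and only for reads that 1 model holds alone. Whether SEC31B reads were set aside as shared between its models was not tested, so no level is given for it. In the last 500 transcript bases, SEC31A shares an exact run of at most 32 bases with SEC31B, SAR1A one of 30 bases with SAR1B, ARFA1D one of 28 bases with ARFA1A and SAR1C one of 27 bases with AT1G02620.

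**Figure D1:**
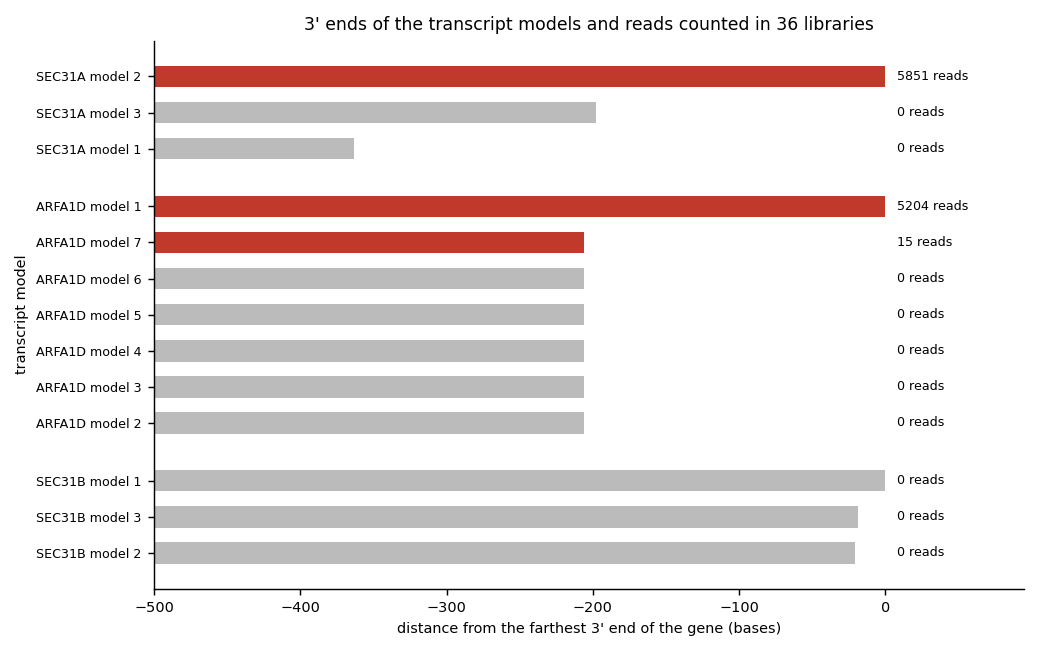
3′ ends of the transcript models of SEC31A, ARFA1D and SEC31B. Bars end where each model ends, in bases from the farthest 3′ end of the gene over its last 500 bases, with the reads counted in 36 libraries at the right and models that hold reads in red; the models that run farthest hold 5851 and 5204 reads for SEC31A and ARFA1D, and the SEC31B models, which end close together, hold 0.

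SEC22 (AT1G11890, chr1:4010757-4013104, plus strand), a SNARE of ER and Golgi membranes, had WT mock libraries at 25.5, 28.3 and 25.1 CPM. WT Tm stood at 57.0, 90.3 and 78.8 CPM, DTT at 72.3, 62.0 and 90.5 CPM and AZC at 32.8, 36.4 and 28.9 CPM. In bzip28/60, where no other inducible member rose, SEC22 libraries stood at 25.8, 24.7 and 22.6 CPM under mock and at 38.9, 37.5 and 40.7 CPM under Tm, with no overlap. In bzip17/60 the values were 29.3, 25.4 and 26.5 CPM under mock and 30.7, 34.9 and 39.8 CPM under Tm, again without overlap. In bzip17/28 it went from 35.4 ± 2.45 to 130 ± 17.2 CPM and in s1p/s2p from 33.9 ± 3.10 to 70.7 ± 4.02 CPM. SEC22 overlaps the long noncoding locus AT1G04913 on the other strand by 434 bases, and since no source used here gives the strand setting of the counting, the reads of the pair cannot be told apart.

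ARFA1D (AT1G70490, chr1:26563718-26565865, minus strand), 1 of several ARF1-class GTPase genes, stood at 7.30, 6.22 and 3.35 CPM in WT mock. It stood at 130, 186 and 104 CPM in WT Tm, at 157, 152 and 206 CPM in DTT and at 12.4, 4.20 and 4.03 CPM in AZC. AZC overlapped mock, and Tm overlapped DTT. In bzip17/28 ARFA1D went from 16.7 ± 1.90 to 337 ± 21.2 CPM and in s1p/s2p from 13.3 ± 3.67 to 152 ± 25.4 CPM. In bzip28/60 it was 3.86 ± 1.41 under mock and 2.44 ± 0.797 CPM under Tm, and in bzip17/60 3.26 ± 2.65 and 4.04 ± 1.57 CPM, with overlap in both. ARFA1D shares 235 bases with AT1G70480 on the other strand, and the same limit holds for it.

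**Figure D2:**
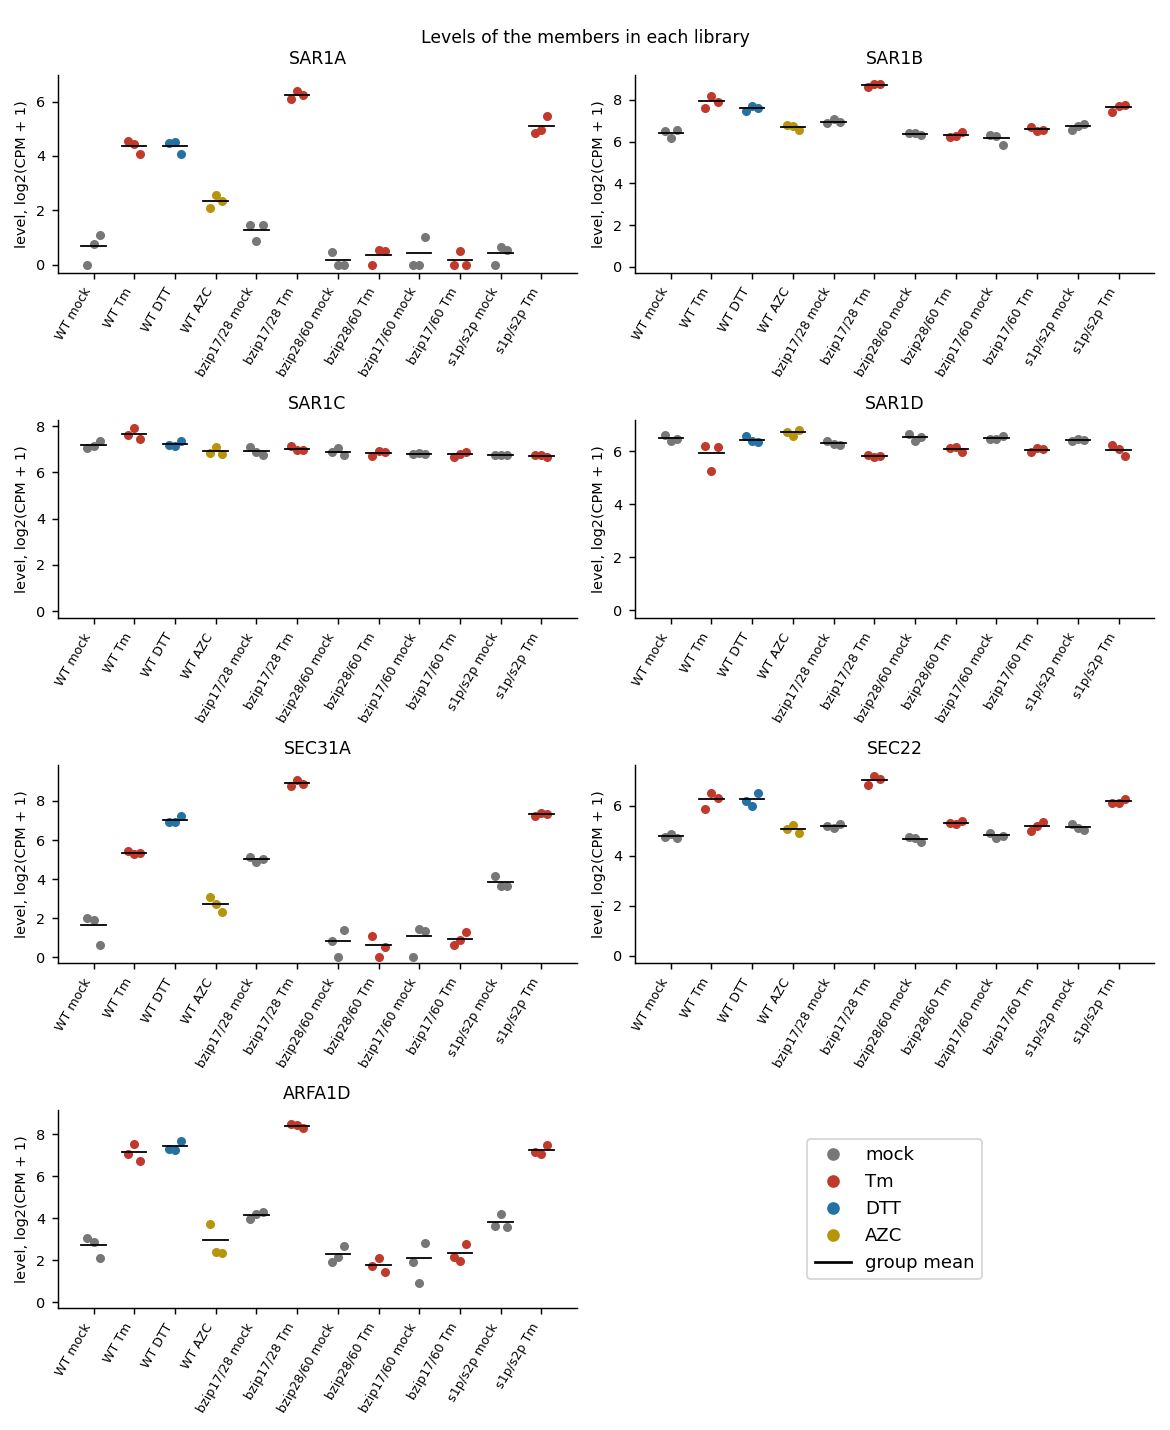
Level of each of the 7 members with reads in every library, as log2(CPM + 1), by group. Points are libraries, coloured by treatment, and lines are group means; SAR1A, SEC31A and ARFA1D stay near the bottom in bzip28/60 and bzip17/60 under Tm, bzip17/28 Tm is the highest group for SAR1A, SAR1B, SEC31A, SEC22 and ARFA1D, and SAR1C and SAR1D run nearly flat.

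Tm against mock in WT asked how the set responds to blocked N-glycosylation. Of the 7 tested members 6 rose and 1 fell, against 8.65% and 8.26% of all tested genes in those directions, and the median of the 7 was 1.52 against 0.0246 for all genes. SAR1A passed the filter on low counts only through groups given Tm or DTT. Its place in this count and in those below was thus partly set by the filter. SAR1A was 31.3-fold higher (95% counting interval 10.3 to 155), ARFA1D rose by 4.63 ± 0.38 (adjusted p = 2.22e-15) and SEC31A by 4.24 ± 0.48 (adjusted p = 1.84e-12). SEC22 rose by 1.52 ± 0.17 (adjusted p = 8.79e-09) and SAR1B by 1.51 ± 0.14 (adjusted p = 1.41e-10). The 5 loci at the head of this order had Tm libraries that were all above the mock libraries. SAR1C rose by 0.47 ± 0.13 (adjusted p = 0.00823) and SAR1D fell, at -0.56 ± 0.16 (adjusted p = 0.0102). Both of these calls were lost without WT Tm 2, at adjusted p of 0.116 and 0.138, and also without WT mock 1, at 0.0563 and 0.0576. They were lost as well with only the libraries compared (0.274 and 0.251) and with voom (0.238 and 0.115), and SAR1C with no filter on low counts (0.0817). Over all genes, 1772 were called here in either direction, and 259 with only the libraries compared.

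DTT and AZC were set against the same WT mock libraries as Tm, so the 3 comparisons share them. With DTT, SAR1A, SAR1B, SEC31A, SEC22 and ARFA1D rose and none of the 7 fell, against 8.91% of all genes higher. SEC31A rose by 5.93 ± 0.47 (adjusted p = 5.88e-19), ARFA1D by 4.93 ± 0.38 (adjusted p = 1.21e-16), SEC22 by 1.50 ± 0.17 (adjusted p = 4.62e-09) and SAR1B by 1.18 ± 0.14 (adjusted p = 3.06e-08), and SAR1A was 32.6-fold higher (10.8 to 161). SAR1C and SAR1D had values of 0.05 (95% interval -0.22 to 0.31) and -0.07 (-0.37 to 0.24). The 6 root markers moved with DTT, from a sum of 198 to 265 CPM in WT mock down to 31.7 to 63.3 CPM, with 6 of 6 lower and CASP2 at 0, and their part in the result was not tested.

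AZC raised 1 of the 7, SAR1A, against 3.28% of all genes higher. It was 6.47-fold higher than mock (1.91 to 34.2, from 19 reads against 3), a call lost without WT mock 1 (adjusted p = 0.11), without WT AZC 2 (adjusted p = 0.0694) and with DESeq2 (adjusted p = 0.058), and SAR1A could not be tested with only the libraries compared. SEC31A had 1.48 ± 0.54 (adjusted p = 0.0778) with no overlap between AZC and mock libraries, and ARFA1D had 0.38 (-0.59 to 1.36). SAR1B and SEC22 had 0.28 (-0.03 to 0.59) and 0.31 (-0.07 to 0.70). Root marker sums were 118 to 125 CPM with AZC, with 4 of 6 lower, and their part in the result was not tested.

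The inducers were also compared with each other. SEC31A was lower with Tm than with DTT by -1.69 ± 0.19 (adjusted p = 4.71e-09), SAR1D was lower and SAR1C higher with Tm, against 12.1% of all genes called lower and 12.1% called higher. SEC31A kept this call in every fit without 1 library, from -1.76 to -1.59, whereas SAR1C and SAR1D lost theirs without WT Tm 2 (adjusted p = 0.183 and 0.171) or WT DTT 1 (0.0612 and 0.0873), and SAR1C also without WT DTT 2 (0.0746). SAR1A, SEC22 and ARFA1D had Tm minus DTT values of -0.04 (-0.58 to 0.50), 0.02 (-0.29 to 0.33) and -0.30 (-0.70 to 0.11). Against AZC, 6 of the 7 were higher with Tm and SAR1D was lower, where 9.38% and 9.13% of all genes were so called. With only the libraries compared, SAR1C (adjusted p = 0.0619) and SAR1D (0.0863) lost these calls. With DTT 5 of the 7 were higher than with AZC, where 9.49% of all genes were. ARFA1D separated AZC from the others most among the members tested against AZC, by 4.25 ± 0.35 for Tm and 4.55 ± 0.35 for DTT (adjusted p = 4.61e-15 and 3.1e-16).

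**Figure D3:**
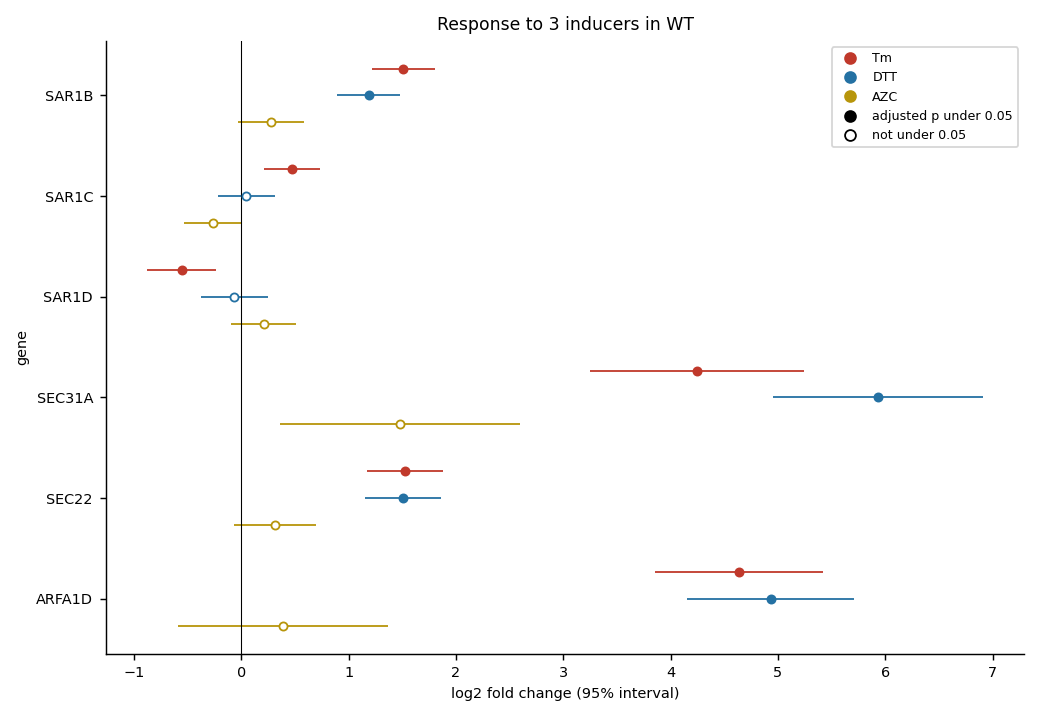
Log2 fold change of 6 members with Tm, DTT and AZC against mock in WT. Points are estimates with 95% intervals from edgeR, filled where the adjusted p is under 0.05, and SAR1A is left out since its WT mock libraries held 3 reads in all; SEC31A stands at 4.24 with Tm, 5.93 with DTT and 1.48 with AZC.

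Tm against mock was then read in each mutant. In bzip17/28, 5 of the 7 rose and SAR1D fell, against 4.59% and 7% of all genes. SAR1A was 52.2-fold higher (28.2 to 110), ARFA1D rose by 4.33 ± 0.24, SEC31A by 3.95 ± 0.17, SEC22 by 1.88 ± 0.15 and SAR1B by 1.77 ± 0.13, with adjusted p from 6.22e-21 to 1.89e-13. SAR1D was at -0.48 ± 0.15 (adjusted p = 0.0245), and 5 of the 6 fits without 1 bzip17/28 library lost that call. In s1p/s2p the same 5 loci rose, against 1.81% of all genes. There SAR1A was 95.8-fold higher (26.2 to 796, from 209 reads against 2), SEC31A rose by 3.56 ± 0.22, ARFA1D by 3.53 ± 0.27, SEC22 by 1.06 ± 0.16 and SAR1B by 0.91 ± 0.14, with adjusted p from 1.18e-16 to 8.72e-06. Root marker sums went from 248 to 253 CPM under mock to 121 to 143 CPM with Tm in bzip17/28, and from 83.9 to 102 CPM to 43.0 to 68.2 CPM in s1p/s2p, and their part in these results was not tested.

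In bzip28/60, SEC22 was the 1 member that rose with Tm, by 0.68 ± 0.17 (adjusted p = 0.0135), against 0.887% of all genes higher. The call was lost without bzip28/60 mock 3 (adjusted p = 0.0834), Tm 1 (0.0551) or Tm 3 (0.0635). SAR1B had -0.06 (-0.36 to 0.23), ARFA1D -0.66 (-1.82 to 0.49) and SEC31A -0.55 (-2.46 to 1.37), the last from 4 reads against 6. In bzip17/60, 0 of the 7 were called by edgeR, against 3.2% of all genes, where 3 (SAR1B, SAR1D and SEC22) had an unadjusted p under 0.05, DESeq2 called 0 and limma-voom with a spread per group called 1. SAR1B had 0.42 ± 0.15 (adjusted p = 0.13), SEC22 0.38 ± 0.17 (adjusted p = 0.323) and ARFA1D 0.33 (-0.81 to 1.47). SAR1A had 1 read in all under mock and 2 with Tm in bzip28/60, and 2 and 1 in bzip17/60, so no fold is given. Root marker sums with Tm were 146 to 174 CPM in bzip28/60 and 93.1 to 128 CPM in bzip17/60, against 210 to 280 and 202 to 238 CPM under mock, and their part in these results was not tested.

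SAR1D differed from the others in that its Tm values lay close together in all 5 genotypes, at -0.56, -0.48, -0.46, -0.44 and -0.36 in WT, bzip17/28, bzip28/60, bzip17/60 and s1p/s2p. They passed the test in the first 2 of these only, and in the other 3 the adjusted p was 0.0812, 0.107 and 0.232. With DESeq2 the bzip28/60 value passed too (adjusted p = 0.0359). No difference between the SAR1D responses of 2 genotypes was called, and those against WT were 0.08 to 0.20 with 95% intervals that reached from -0.36 to 0.64.

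**Figure D4:**
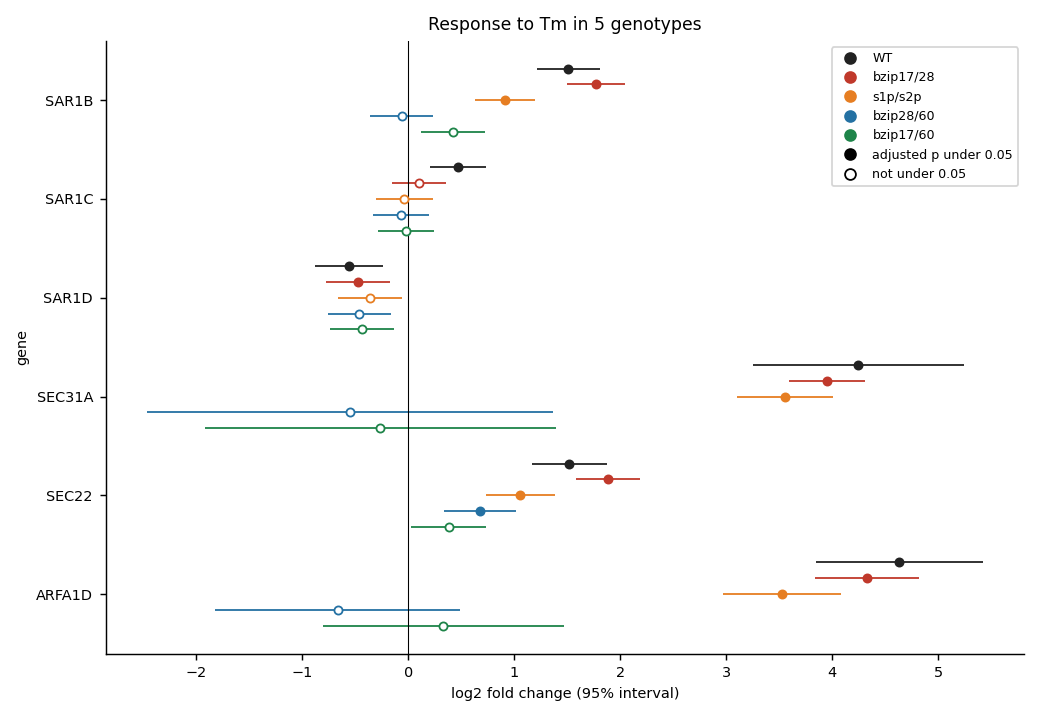
Log2 fold change of 6 members with Tm against mock in 5 genotypes. Points are edgeR estimates with 95% intervals, filled where the adjusted p is under 0.05, and SAR1A is left out since most of its mock groups held 3 reads or fewer. SEC31A and ARFA1D lie at 3.53 to 4.63 in WT, bzip17/28 and s1p/s2p and were not called in bzip28/60 and bzip17/60, where they had few reads. SAR1D lies at -0.56 to -0.36 in all 5.

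The difference between the Tm response of a mutant and that of WT was tested directly, and these 4 tests share the WT libraries. For bzip28/60 the response was smaller for ARFA1D (-5.30 ± 0.68, adjusted p = 5.62e-07), SEC31A (-4.79 ± 1.04, adjusted p = 0.00487), SAR1B (-1.57 ± 0.20, adjusted p = 8.74e-07) and SEC22 (-0.84 ± 0.24, adjusted p = 0.0331). That is 4 of 7, against 2.15% of all genes. For bzip17/60 the same 4 loci had smaller responses, against 1.98%: ARFA1D by -4.31 ± 0.67 (adjusted p = 0.000409), SEC31A by -4.51 ± 0.94 (adjusted p = 0.00686), SEC22 by -1.14 ± 0.24 (adjusted p = 0.00677) and SAR1B by -1.09 ± 0.21 (adjusted p = 0.00181). The SEC31A value was lost without bzip28/60 mock 3 (adjusted p = 0.153) or bzip17/60 mock 2 (adjusted p = 0.0829), where its mock counts were 0 to 4. The SEC22 call in bzip28/60 was lost in 9 of 12 fits without 1 library (adjusted p up to 0.108), and with only the libraries compared the bzip17/60 values of SAR1B, SEC31A and SEC22 had adjusted p of 0.109, 0.0669 and 0.123.

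No such difference from WT was called by edgeR for bzip17/28 or s1p/s2p, against 4.12% and 1.91% of all genes. For bzip17/28, 1 of the 7 (SAR1C) had an unadjusted p under 0.05, and for s1p/s2p 3 had (SAR1B, SAR1C and ARFA1D), while DESeq2 called 0 in both. The bzip17/28 differences were 0.26 (-0.14 to 0.67) for SAR1B, -0.29 (-1.35 to 0.76) for SEC31A, 0.36 (-0.11 to 0.83) for SEC22 and -0.31 (-1.23 to 0.62) for ARFA1D. In s1p/s2p they were -0.59 (-1.01 to -0.18), -0.69 (-1.78 to 0.41), -0.46 (-0.95 to 0.02) and -1.11 (-2.07 to -0.15). The SAR1B value in s1p/s2p passed without WT Tm 1 (adjusted p = 0.0151).

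The mutants were also compared with each other. Against bzip17/28, whose libraries these tests share, bzip28/60 had smaller responses in 4 of 7 members, against 1.28% of all genes, and bzip17/60 in 5 of 7, against 1.1%. For SEC31A these were -4.50 ± 0.94 and -4.21 ± 0.82, for ARFA1D -4.99 ± 0.61 and -4.00 ± 0.60, for SAR1B -1.83 ± 0.20 and -1.35 ± 0.20 and for SEC22 -1.20 ± 0.22 and -1.50 ± 0.23, with adjusted p from 5.63e-09 to 0.00419. The fifth call in bzip17/60 was SAR1A (adjusted p = 0.0487), which rests on 2 reads under mock and 1 with Tm there and was lost in 9 of 12 fits without 1 library. The SEC31A value was lost without bzip28/60 mock 3 (adjusted p = 0.309) or, in bzip17/60, without mock 2 (0.167) or mock 3 (0.0599). Without bzip17/60 mock 3, ARFA1D was lost as well (0.0687), and 2 of the 5 calls were left. In s1p/s2p the response of SAR1B was smaller than in bzip17/28 (-0.86 ± 0.19, adjusted p = 0.0155), 1 of 7 against 0.286% of all genes, a call lost without any of 4 libraries (bzip17/28 mock 1 or 3, s1p/s2p mock 3 or s1p/s2p Tm 1, adjusted p up to 0.103). SEC22 had -0.82 ± 0.21 in the same comparison (adjusted p = 0.0601). Between bzip28/60 and bzip17/60, 0 of the 7 differed by edgeR, against 0.248% of all genes. There SAR1B, at -0.49 (-0.91 to -0.06), had an unadjusted p under 0.05, and DESeq2 called 0.

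Mutants under mock were compared with WT mock, libraries that these 4 tests share, and SEC31A was higher in bzip17/28 and s1p/s2p. In bzip17/28 the difference was 3.89 ± 0.48 (adjusted p = 1.76e-10), from 2.12 ± 1.36 to 31.3 ± 2.42 CPM, and ARFA1D (1.59 ± 0.41, adjusted p = 0.00245) and SAR1B (0.54 ± 0.14, adjusted p = 0.00622) were higher too. That is 3 of 7, against 9.16% of all genes. In s1p/s2p SEC31A was higher by 2.66 ± 0.50 (adjusted p = 4.25e-05), at 13.3 ± 2.82 CPM, and SAR1C was lower (-0.44 ± 0.13, adjusted p = 0.0263), against 2.81% and 4.57% of all genes. ARFA1D had 1.23 ± 0.42 in s1p/s2p (adjusted p = 0.053) and passed with DESeq2 (adjusted p = 0.0193). The SAR1C call was lost without WT mock 3 (adjusted p = 0.153) or any of the s1p/s2p mock libraries (0.0694 to 0.0949). In bzip28/60 and bzip17/60, 0 of the 7 differed from WT by edgeR, against 5.35% and 8.31% of all genes. SAR1C had an unadjusted p under 0.05 in each, and DESeq2 called 0 and 1, the latter being SAR1C in bzip17/60. Mock root marker sums were 198 to 265 CPM in WT, 248 to 253 CPM in bzip17/28 and 83.9 to 102 CPM in s1p/s2p, and their part in these results was not tested.

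The levels reached under Tm were compared with WT Tm, a comparison added after the data were seen. In bzip17/28, 5 of 7 were higher and SAR1C was lower, against 17% and 18.5% of all genes. SEC31A was higher by 3.59 ± 0.18 (adjusted p = 1.77e-18), SAR1A by 1.94 ± 0.23, ARFA1D by 1.28 ± 0.19, SAR1B by 0.81 ± 0.13 and SEC22 by 0.79 ± 0.14. In s1p/s2p SEC31A was higher by 1.98 ± 0.18 (adjusted p = 1.18e-10) and SAR1A by 0.78 ± 0.24 (adjusted p = 0.0105), and SAR1C was lower, against 14.4% and 16.9% of all genes. The SAR1A call was lost without WT Tm 3 or s1p/s2p Tm 3, and with only the libraries compared (adjusted p = 0.0655). Root marker sums with Tm were 43.0 to 68.2 CPM in s1p/s2p and 121 to 143 CPM in bzip17/28 against 180 to 218 CPM in WT, and their part in these results was not tested. ARFA1D, SEC22 and SAR1B had 0.12 ± 0.19, -0.10 ± 0.15 and -0.29 ± 0.13 in s1p/s2p. SEC31A in bzip17/28 was thus higher than in WT both under mock and with Tm, and its fold change with Tm was not shown to differ from that of WT.

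In bzip28/60 and bzip17/60 under Tm, 6 of 7 members were lower than in WT Tm, against 13.2% and 18.6% of all genes, and SAR1D was the exception, at 0.13 (-0.18 to 0.45) and 0.12 (-0.21 to 0.44). SEC31A was lower by -6.00 ± 0.73 and -5.29 ± 0.61, and ARFA1D by -5.82 ± 0.46 and -5.10 ± 0.39. SAR1A was 67.8-fold (18.2 to 569) and 120-fold (21 to 4800) higher in WT Tm, on 84 reads against 2 and 1. SAR1B was lower by -1.62 ± 0.14 and -1.35 ± 0.14, SEC22 by -0.95 ± 0.15 and -1.10 ± 0.16 and SAR1C by -0.83 ± 0.13 and -0.88 ± 0.13. Each of these counts of 6 held without any 1 library. Root marker sums with Tm were 146 to 174 CPM in bzip28/60 and 93.1 to 128 CPM in bzip17/60, below WT Tm, and their part in these results was not tested.

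Other genes of the same route were read from a list of 96 in 11 groups, of which 55 were tested. That list too was written with earlier results of these data known, so its shares only describe it. With Tm in WT 21 rose and 0 fell, against 8.65% and 8.26% of all genes, and the median of the 55 was 0.486 against 0.0246 for all genes. In the COPII coat SEC23B (AT1G05520) rose by 1.56 ± 0.36 (adjusted p = 0.0013), 1 of 4 tested SEC23 genes, and SEC24A (AT3G07100), the 1 SEC24 gene tested, by 0.56 ± 0.17 (adjusted p = 0.0189). Of the p24 cargo receptors 4 of 7 rose, among them AT1G21900 (p24delta5, 1.74 ± 0.20) and AT3G07680 (p24beta2, 1.30 ± 0.17). Of the COPI coat genes 4 of 7 rose, led by an alpha subunit gene, AT1G62020 (1.46 ± 0.13, adjusted p = 3.1e-11), and a beta-prime subunit gene, AT3G15980 (1.80 ± 0.32). Of the ER-Golgi SNAREs 3 of 9 rose (SEC20, MEMB11 and GOS11), of the tethers and RABD GTPases 3 of 7 (RABD1, RABD2B and RABD2C) and of the other ARF genes and regulators 3 of 8 (ARFA1A, ARFA1C and AGD9). PHF1, a SEC12-like protein for phosphate transporter exit, rose by 0.90 ± 0.22, the cornichon gene CNIH4 by 0.53 ± 0.18, and 0 of 4 ERD2 retrieval receptor genes passed. The rises of the members SAR1A, SEC31A and ARFA1D were larger than that of any list gene named here.

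Across the other treatments, 15 of the 55 rose and 0 fell with DTT (median 0.318), against 8.91% of all genes higher. With AZC 2 rose and 1 fell (median 0.00317), near the 3.28% higher and 2.2% lower of all genes. With Tm, 17 rose and 0 fell in bzip17/28 (median 0.408), against 4.59% higher, and 5 and 0 in s1p/s2p (0.164), against 1.81%. In bzip17/60 3 rose and 0 fell (0.0937), against 1.04% higher, and in bzip28/60 0 rose and 1 fell (0.0407), near the 1.54% of all genes lower. Medians of all genes in these 6 comparisons lay between -0.0217 and 0.0159. The Tm response was smaller than in WT for 11 of the 55 in bzip28/60, 7 in bzip17/60 and 2 in s1p/s2p, against 2.15%, 1.98% and 0.754% of all genes. It was larger for 2 in bzip17/28, against 2% of all genes, and counts of 2 or fewer are not read as a property of the list. AT1G62020 was among those with a smaller response in both bzip28/60 (-1.26 ± 0.19) and bzip17/60 (-1.37 ± 0.19), and its response was larger in bzip17/28 (0.80 ± 0.18, adjusted p = 0.00567). AT1G21900 behaved otherwise: it rose by 1.21 ± 0.19 with Tm in bzip17/60 (adjusted p = 1.37e-05), had 0.19 ± 0.19 in bzip28/60, and its response was smaller than in WT in bzip28/60 (-1.55 ± 0.28, adjusted p = 0.00041).

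Likeness of pattern was described by Pearson's r over the 12 group means of log2 CPM, which share libraries and treatments. SAR1A, SAR1B, SEC31A, SEC22 and ARFA1D had r of 0.887 to 0.964 with each other, SAR1C 0.280 to 0.447 with these 5, and SAR1D -0.724 to -0.475. Among all tested genes AT1G62020 was 1 of the 3 nearest to SAR1A (0.972), SAR1B (0.970), SEC22 (0.974) and ARFA1D (0.968). AT4G21730 was 1 of the 3 nearest to SAR1A (0.979), SEC31A (0.965) and ARFA1D (0.980). The nearest to SEC31A was ERO1 (0.967), an ER thiol oxidase, and SEC31A and ARFA1D were each 1 of the 3 nearest to the other (0.964). SAR1A lay nearest to AT4G11800 (0.982), and SAR1B to AT2G25520 (0.972) and NAC103 (0.972). After AT1G62020, SEC22 lay nearest to AT3G05230 (0.963) and UBC32 (0.962). SAR1C lay nearest to AT1G05840 (0.984), SKP1 (0.96) and MEE59 (0.95), and SAR1D to AT1G66100 (0.929), AT1G78850 (0.924) and CYP98A3 (0.894).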

How the data were processed

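Counts per transcript model and library were used as the authors deposited them: whole-number counts, not normalized, over 58699 models. The tools, in no stated role or order, are listed per the submitters' processing notes as HTSeq 0.6.0, SAMtools, TopHat2 2.1.1 and Trim Galore 0.2.8. Not given in the sources used here are build, annotation and strand setting. Rows that name no gene stayed out of library sizes. Ambiguous reads were 38.4 to 41.4% and reads on no feature 2.69 to 6.32% of assigned, ambiguous and no-feature reads together. Reads set aside for other reasons are not in these shares. The number of sample columns left unused was 0.

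Model counts were summed to 37336 loci. In R 4.3.3, edgeR 4.0.16 was fitted to all 36 libraries with 12 group means, TMM scaling and filterByExpr at a minimum count of 10, which left 10480 genes, and p-values were adjusted over all of them at 0.05. Standard errors are Wald errors on the log2 scale. Ratios on low counts carry 95% exact counting intervals, and the floor of a 0 count is 3 counts. Both cover counting error only. Alternatives used limma 3.58.1 (voom), DESeq2 1.42.0, no filter, a replicate block, scaling by library size alone or by relative log expression, only the libraries compared, models as deposited and leaving out each library. The scripts were tested on simulated data.

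Gene positions, promoters and overlaps come from RefSeq TAIR10.1, matched by locus tag for 8 of 8 members. No pair of repeats within a group held identical values, and each pair differed by more than counting noise (chi-square per degree of freedom 1.58 to 14.3). Same-numbered libraries are not stated to be paired.

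The members and gene lists were chosen with earlier results of these data known. List genes were written from memory and checked against RefSeq product names. All members are named, with the 3 genes nearest to each member in pattern. Of the list genes that passed the test with Tm in WT, up to 3 per group of the list are named. The 4 comparisons of Tm levels with WT Tm were added after the data were seen.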

Additional observations from a re-analysis of the deposited data

Results flagged for a closer look

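The results below are differences between the Tm responses of 2 genotypes that passed a direct test (edgeR's interaction contrast, adjusted p under 0.05). Each value is a log2 difference of responses, with the Tm and mock groups of 3 libraries each. Several of these calls were lost in fits without 1 library or with other settings, as given above. The SEC31A values rest on few reads, 4 with Tm and 6 under mock in bzip28/60 and 6 and 7 in bzip17/60. Between bzip28/60 and WT the difference was -1.57 for SAR1B, -4.79 for SEC31A, -0.84 for SEC22 and -5.30 for ARFA1D. Between bzip17/60 and WT it was -1.09 for SAR1B, -4.51 for SEC31A, -1.14 for SEC22 and -4.31 for ARFA1D. Between bzip28/60 and bzip17/28 it was -1.83 for SAR1B, -4.50 for SEC31A, -1.20 for SEC22 and -4.99 for ARFA1D.

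Between bzip17/60 and bzip17/28 the differences were -1.35 for SAR1B, -4.21 for SEC31A, -1.50 for SEC22 and -4.00 for ARFA1D. The SAR1A value of -6.47 in the same comparison is a fitted number that rests on 2 and 1 reads in bzip17/60 and gives no usable size. Between s1p/s2p and bzip17/28 the difference for SAR1B was -0.86. These contrasts share libraries, so they do not stand as separate evidence. No group had more than 3 libraries, so no single library was tested for standing apart.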

How the results depend on the processing

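Under the alternatives other than leaving out 1 library, 193 of 208 counts of called members stayed within 1.5 times, and 1393 of 1439 single values kept their side of the threshold. The sign changed for 10 of the 1439 values, and for 55 of 1428 with 1 library left out, and 0 of these were called in either fit. With AZC 0 calls were left with DESeq2, which lost SAR1A, and with only the libraries compared, where SAR1A was not tested. In that fit 17 of the 182 member values, this one included, could not be tested. Over all genes, that fit took calls from 1772 to 259 for Tm in WT. For the bzip17/60 and s1p/s2p responses against WT it took them from 397 to 14 and from 200 to 7. For Tm in bzip17/28 and bzip28/60 calls went up, from 1215 to 1634 and from 254 to 706. Shares over all genes thus depend on the fit. Between Tm and DTT, 1 of 3 calls was left with only the libraries compared and with voom. With Tm in bzip28/60, SAR1D made it 2 with only the libraries compared, with DESeq2 and with voom, and in bzip17/60 it made it 1 with voom. The response of bzip17/60 against WT kept 1 of 4 calls, ARFA1D, with only the libraries compared and with voom. The response of s1p/s2p against bzip17/28 had 2 calls, SEC22 added, with only the libraries compared, DESeq2 and voom. Against WT mock, SAR1C in bzip17/60 made it 1 with DESeq2 and voom. The cause was not tested.

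Leaving out 1 library gave 5 to 7 calls for Tm in WT, 0 to 1 for AZC, 1 to 4 for Tm against DTT, 0 to 1 for Tm in bzip28/60, 3 to 5 for the response of bzip28/60 against WT, 4 to 5 for bzip17/60 against WT and 0 to 1 for s1p/s2p against WT. Against bzip17/28 it gave 3 to 4 for bzip28/60, 2 to 5 for bzip17/60 and 0 to 2 for s1p/s2p. It gave 1 to 2 for s1p/s2p mock and 2 to 4 for s1p/s2p Tm against WT Tm. Calls gained included SAR1B (without WT Tm 1, adjusted p = 0.0155) and ARFA1D (without WT Tm 2, 0.0408) between Tm and DTT, and SAR1C in the bzip28/60 response against WT (without WT Tm 1 or 3, 0.0447 and 0.0282).

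The replicate numbers were shared between groups, and whether same-numbered libraries were handled together is not stated. Over 18 comparisons the deviations of same-numbered libraries had r of -0.15 to 0.198, and 6 of 21 treated libraries correlated best with their own number. A replicate block gave 0.855 to 1 times the calls over all genes. It took the SAR1A response of bzip17/60 against bzip17/28 to an adjusted p of 0.0573 and changed no other member's call. The median over all genes shifted by up to 0.114 (log2) when libraries were scaled by size alone. DESeq2 gave no adjusted p (NA) for SAR1A in 3 comparisons. Depth limits SAR1A, SEC31A and ARFA1D where a group held a handful of reads.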
